A study of Mus musculus with 12 samples.

Results

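Raised CO2 and bicarbonate-poor medium are both ways to acidify cells from outside, and here they were set directly against each other in C8-D1A, an established mouse cell line labelled as astrocytes. The comparison took in 6 of the 12 libraries of the series, 3 from cells kept for 24 h under 15% CO2 and 3 from cells kept for 24 h in medium with 0.2 g/L NaHCO3, called low-NaHCO3 medium below. No untreated library entered it. Of the 21959 genes listed, the 11956 with at least 1 TPM (a transcript's share of a library, corrected for transcript length and scaled to a sum of 1000000) in at least 3 of these 6 libraries were compared. The labels give neither the pH reached in either group, nor the CO2 level over the low-NaHCO3 cells, nor the NaHCO3 content of the medium under 15% CO2. Effects of pH, CO2 and bicarbonate cannot be told apart in this comparison. Nothing in the labels shows that replicates were grown as separate cultures, so p-values measure only the spread between these libraries, which may be technical.

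CO2 hydrates to carbonic acid, which gives a proton and bicarbonate, and carbonic anhydrases speed this reaction. A rise in CO2 therefore acidifies while it supplies bicarbonate, whereas bicarbonate-poor medium acidifies by taking away the base that buffers protons. Astrocytes are known for carrying bicarbonate with sodium across their membrane, for exporting lactate, and for supplying cholesterol to neurons.

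The libraries under 15% CO2 are called CO2 1, 2 and 3 after their replicate numbers, and those in low-NaHCO3 medium low 1, 2 and 3. Differences are coded as 15% CO2 minus low-NaHCO3 medium on the log2(TPM + 1) scale, which understates ratios of genes at a few TPM. A signed number with its standard error in parentheses after a gene is that difference. "Higher" and "lower" are used of genes that passed limma's test at a Benjamini-Hochberg adjusted p of 0.05 over all genes compared, and they say where a gene stood under 15% CO2. Where no member of a list passed in a direction, none did at an unadjusted p of 0.05 either. A gene below 1 TPM in all 3 libraries of a treatment could pass the filter on low values only through the other treatment. That favours its passing the test, and some lists count such genes. Levels of 2 untreated controls under 5% CO2 (replicates 2 and 3) are set beside some genes as a background and were not part of any test. Control replicate 1 is left out of these, since its neuron markers summed to 3749.5 TPM against 644 and 671 in the others. The fit of all 12 libraries, an alternative cited below, includes it, and the fit of 11 libraries omits it. Single genes said below to lose their call in the fit of all 12 kept it in the fit of 11. In RNA of whole cultures, fewer cells of a kind and less RNA per cell cannot be told apart.

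The difference between the treatments was broad. In all, 8322 genes (69.6%) passed the test, 5362 of them higher under 15% CO2 (44.8%) and 2960 lower (24.8%). These shares of all genes are the background against which the list counts below are read. Most differences were modest: 1565 genes were higher by at least 1 on the log2 scale (13.1%) and 462 were lower by as much (3.86%), while 119 were higher and 52 lower by at least 2. For 8779 genes (73.4%) the 3 libraries of one treatment did not overlap the 3 of the other. Across the genes compared, Spearman's rho between libraries was 0.990 to 0.995 within 15% CO2, 0.995 to 0.997 within low-NaHCO3 medium and 0.929 to 0.943 between the treatments. The 15% CO2 libraries stood at 0.984 to 0.990 from controls 2 and 3, and the low-NaHCO3 libraries at 0.932 to 0.936, as a description across genes, which are not independent.

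The share of genes on each side depended on how libraries were put on one scale. The median gene was 0.19 higher (log2) under 15% CO2 in TPM as deposited, and higher genes were 64.4% of those that passed. With median-of-ratios scaling the median was 0.041 and 4487 genes were higher against 4082 lower (52.4% higher), and after quantile normalization it was 0.0060 with 4076 against 3926 (50.9%). Leaving out mitochondrial and the 10 most abundant genes gave 0.34 with 6686 against 2292 (74.5%). Removing each library's trend with transcript length gave −0.015 with 4041 against 4422 (47.7%), and the higher genes had longer transcripts than the lower ones (medians of 1626 and 1193 bases). Small differences near 0.19 are therefore read below against this shift. None of the genes that passed in TPM as deposited passed in the opposite direction with median-of-ratios scaling or without the most abundant genes, 8 did after quantile normalization and 9 without the length trend.

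**Figure D1:**
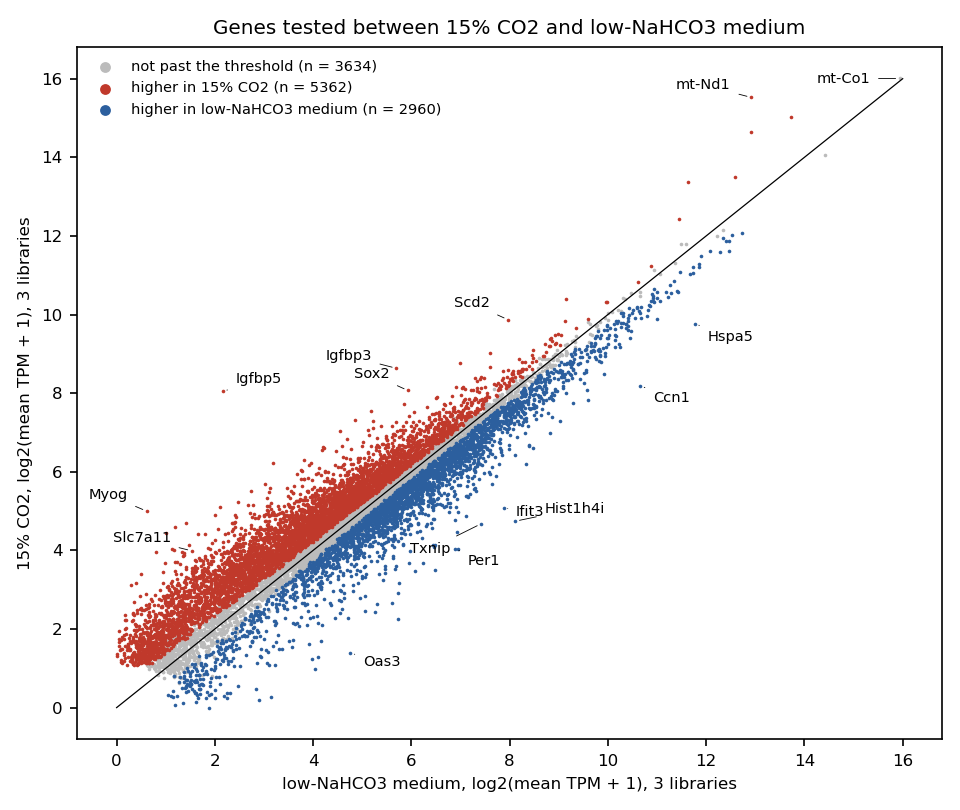
Each point is a gene compared, placed by log2(mean TPM + 1) of the 3 low-NaHCO3 libraries (horizontal axis) and of the 3 libraries under 15% CO2 (vertical axis), and the line marks equal levels. The 5362 red genes were higher under 15% CO2, the 2960 blue ones lower, and the 3634 grey ones did not pass; Igfbp5 lies farthest above the line.

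The largest difference was that of Igfbp5 (ENSMUSG00000026185), a secreted protein that binds insulin-like growth factors. Its level was 274, 264 and 249 TPM in CO2 1, 2 and 3 and 3.58, 3.41 and 3.47 TPM in low 1, 2 and 3. Mean TPM was 75.3-fold higher under 15% CO2, with no overlap. The log2 difference was 5.88 ± 0.075 (limma, Benjamini-Hochberg adjusted p = 1.8e-10). Controls 2 and 3, at 57.9 and 76.8 TPM, lay between the treatments. Igfbp3, of the same family, was at 387, 402 and 399 TPM under 15% CO2 and at 49.1, 51.8 and 51.2 TPM in low-NaHCO3 medium (2.94 ± 0.062), with all 3 low-NaHCO3 libraries well below.

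Myog (myogenin, ENSMUSG00000026459), a transcription factor that drives muscle differentiation, had the next largest difference. It was at 32.4, 33.3 and 27.3 TPM under 15% CO2 and at 0.355, 0.335 and 0.892 TPM in low-NaHCO3 medium (4.40 ± 0.16; limma adjusted p = 2.2e-07), so every low-NaHCO3 library was below 1 TPM. Klhl41, a sarcomere-associated adaptor, followed with 20, 24.3 and 17.5 against 0.945, 0.89 and 1.16 TPM (3.42 ± 0.14), and Asb2, a ubiquitin ligase subunit of muscle, with 9.91, 10.4 and 8.25 against 0.675, 0.282 and 0.301 TPM (2.89 ± 0.16). Chrng, the fetal gamma subunit of the muscle acetylcholine receptor, was 3.01 ± 0.17 higher at 33.3 against 3.28 TPM.

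The other genes with the largest positive differences came from several families. Gas1, a surface protein that restrains growth and binds hedgehog ligands, was at 21.6, 22.9 and 25.4 TPM under 15% CO2 and 0.987, 1.77 and 1.08 TPM in low-NaHCO3 medium (3.43 ± 0.15). Gdf11, a TGF-beta family ligand, was at 79.6, 70.3 and 70.4 against 7.13, 8.37 and 8.87 TPM (3.03 ± 0.099), with controls 2 and 3 at 76.2 and 78.9 TPM, at the level of 15% CO2. Gjc3, a connexin of glia, was 2.77 ± 0.10 higher. Tle2, a transcriptional corepressor (3.15 ± 0.14), Chst12, a chondroitin sulfotransferase (2.83 ± 0.17), Tnfrsf25, a death-domain receptor (2.80 ± 0.21), Islr (3.29 ± 0.17) and Slc35g1 (2.91 ± 0.14) were also among the 15 genes that were highest by the rule used. That the libraries of the treatments do not overlap in these 15 follows from the rule.

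The 15 genes with the largest negative differences were led by histone and interferon-response genes. Hist3h2ba, a core histone gene, was at 2.8, 7.24 and 1.29 TPM under 15% CO2 and at 54.5, 39.1 and 62.6 TPM in low-NaHCO3 medium (−3.65 ± 0.38; limma adjusted p = 2.8e-05). Vgf, a secreted neuropeptide precursor, was at 4.96, 6.45 and 4.69 against 49.9, 44.7 and 48.2 TPM (−2.94 ± 0.12), and Stmn4, a microtubule regulator of the stathmin family, at 17.6, 14.6 and 14.2 against 118, 92.9 and 155 TPM (−2.87 ± 0.16). Both were in controls 2 and 3 at about the level of 15% CO2, with 5.07 and 5.14 TPM for Vgf and 12.2 and 10.3 TPM for Stmn4. Col20a1, a collagen (−2.74 ± 0.14), Phf11b (−2.81 ± 0.17) and the histone pseudogene Hist3h2bb-ps (−2.81 ± 0.32, at 0 TPM in CO2 2 and 3) were also among them. The remaining ones are described with their groups below.

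**Figure D2:**
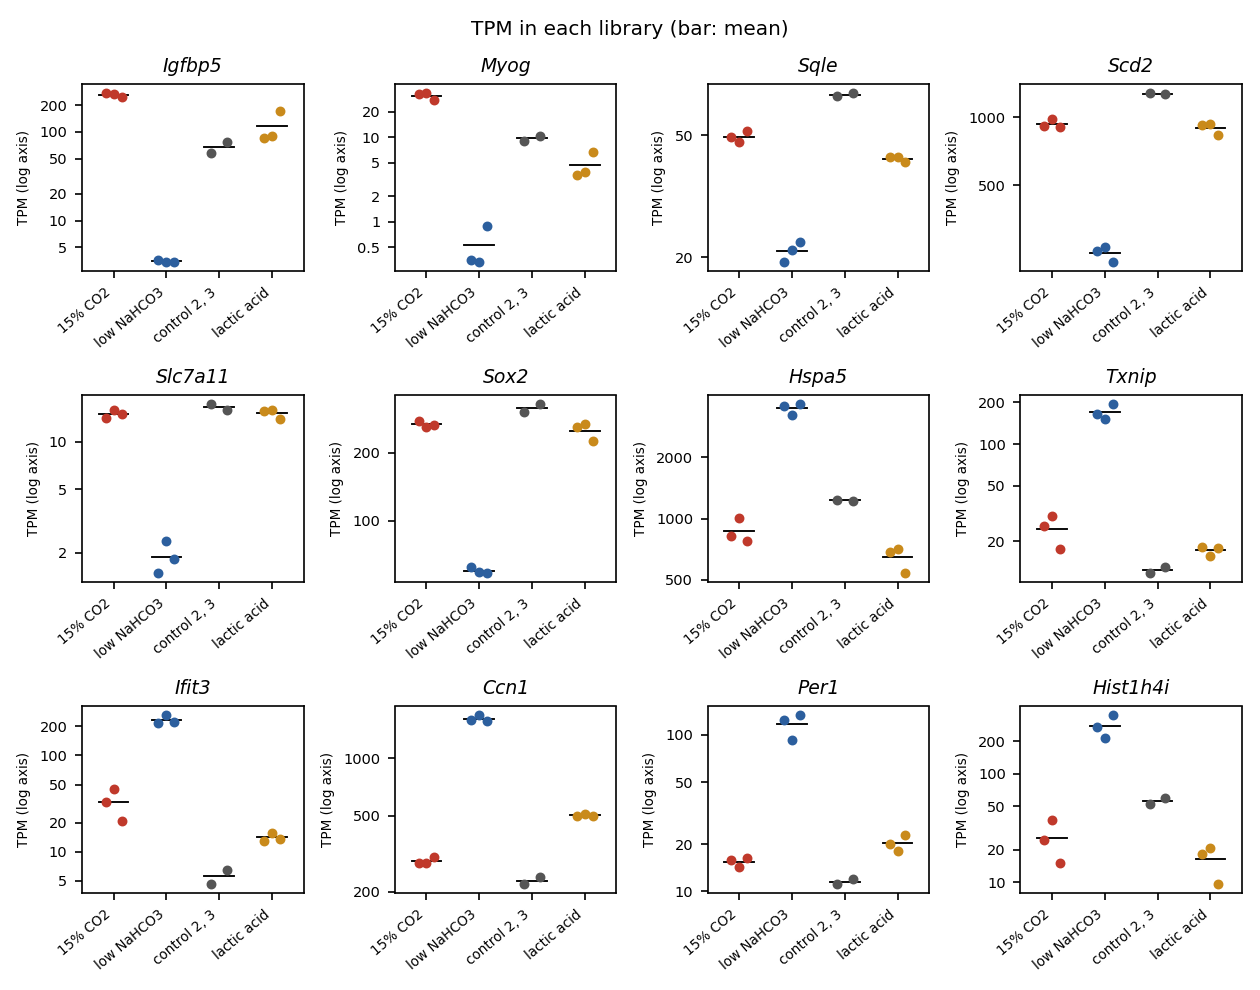
TPM of 12 genes in each library on log axes, with the group mean as a bar, for 15% CO2, low-NaHCO3 medium, controls 2 and 3, and cells given lactic acid, which were not compared here. Read row by row, the low-NaHCO3 libraries lie below all others in the first 6 genes (Igfbp5 to Sox2). In the last 6 (Hspa5 to Hist1h4i) they lie above all others, as for Hspa5 at 3589.8, 3226 and 3666 TPM in low-NaHCO3 medium.

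Genes that move protons and bicarbonate were the first group examined. Of 21 carbonic anhydrases, bicarbonate transporters and sodium-proton exchangers listed, 17 passed the filter on low values. Of these, 10 were higher under 15% CO2, 3 were lower and 4 did not pass, against 44.8% higher among all genes. Their median of 0.46 lay above the 0.19 of all genes. In the count of higher genes the scaling mattered, since 7 were higher after quantile normalization and 13 without the most abundant genes.

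Of 6 bicarbonate transporters compared, 5 were higher and 1 was lower. Slc4a3, a chloride-bicarbonate exchanger, was at 9.17, 9.5 and 7.47 TPM under 15% CO2 and 1.92, 2.27 and 1.71 TPM in low-NaHCO3 medium (1.71 ± 0.14). Its relative Slc4a2 was at 24.3, 24.5 and 22.8 against 10.8, 10.1 and 8.34 TPM (1.22 ± 0.11). Both exchangers normally load the cell with acid by letting bicarbonate out. Slc4a7, which brings bicarbonate into the cell together with sodium, stood the other way, at 36.4, 42 and 37.1 TPM under 15% CO2 and 76.7, 70.7 and 66.8 TPM in low-NaHCO3 medium (−0.87 ± 0.085). Controls 2 and 3 had 29.4 and 29.4 TPM of Slc4a7, below both treatments. Slc4a4, the electrogenic sodium-bicarbonate cotransporter for which astrocytes are known, was near the filter at 1.39, 1.5 and 1.23 against 0.328, 0.596 and 0.494 TPM (0.69 ± 0.15), a call lost after quantile normalization and in the fit of all 12 libraries. Slc4a4 passed the filter only through its 15% CO2 libraries.

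Of 7 sodium-proton exchangers and their partners compared, 4 were higher, 1 was lower and 2 did not pass. Slc9a9, which works in endosomes, was at 16, 15.7 and 17.4 against 5.8, 6.87 and 6.72 TPM (1.22 ± 0.10), and Slc9a3r1, a scaffold that anchors exchangers, was 1.15 ± 0.088 higher at 97.1 against 43.3 TPM.

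Carbonic anhydrases differed among themselves. Car9, a membrane enzyme that acts outside the cell, was at 14.1, 14.2 and 13.1 TPM under 15% CO2 and 12.1, 14.8 and 12.5 TPM in low-NaHCO3 medium. The groups overlapped and the difference was 0.073 ± 0.10 (95% interval −0.16 to 0.30; limma adjusted p = 0.54), while both treatments were above the 6.92 and 6.63 TPM of controls 2 and 3. After quantile normalization Car9 passed as lower, by −0.29. Car11, an anhydrase-related protein without known catalytic activity, was 1.27 ± 0.16 higher at 32 against 12.7 TPM. Car14 was −0.92 ± 0.20 lower but below 3 TPM in every library and passed the filter only through its low-NaHCO3 libraries. Car2, the main cytosolic enzyme, was listed at 0 in all 6. In the fit of all 12 libraries neither Car11 nor Car14 passed.

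Proton-sensing receptors were all below the filter, with Gpr4 below 1 TPM. Of 9 acid-sensing channels, 4 passed the filter and all 4 passed the test, 2 in each direction. Asic1, a sodium channel opened by protons, was at 6.42, 8.66 and 6.38 TPM under 15% CO2 against 2.41, 2.57 and 1.53 TPM (1.37 ± 0.17). Tmem206, a proton-activated chloride channel, was 0.57 ± 0.10 higher. Asic3 was −0.86 ± 0.16 lower at 1.52 against 3.54 TPM, and Kcnk2, a potassium channel closed by outside acid, was −0.76 ± 0.13 lower at 9.65 against 17.2 TPM.

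**Figure D3:**
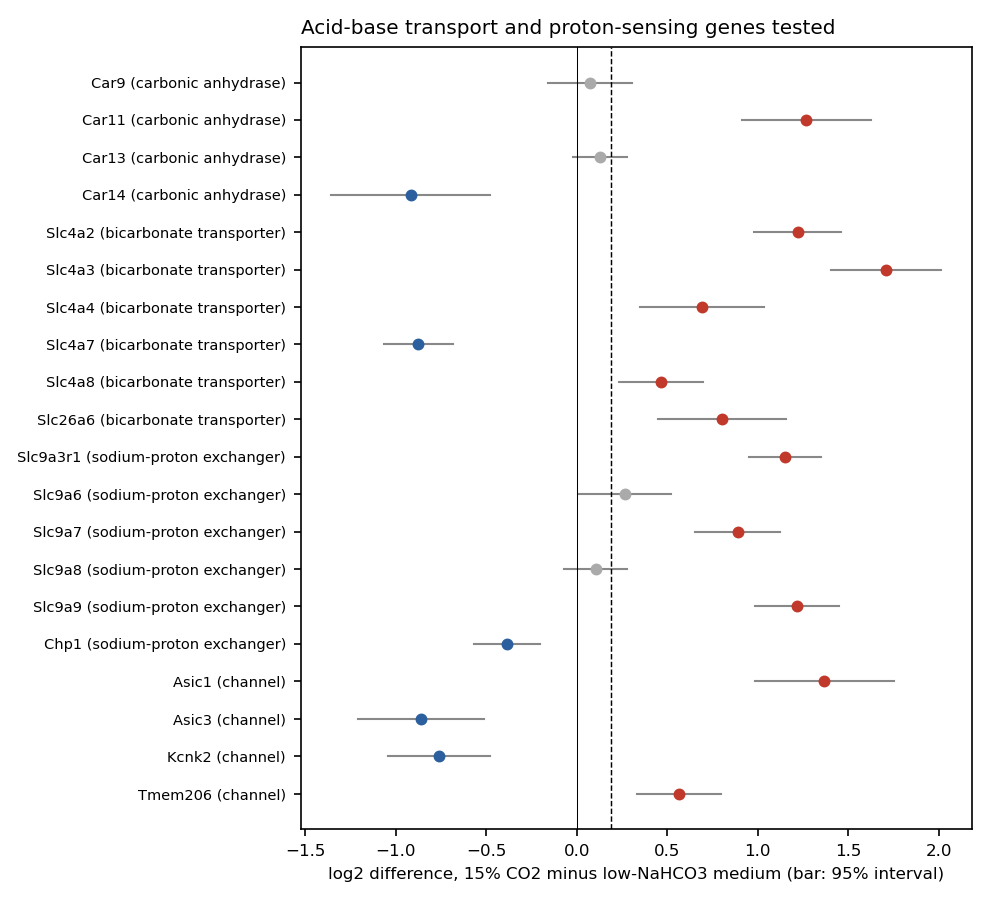
Log2 difference (15% CO2 minus low-NaHCO3 medium, horizontal axis) with its 95% interval for 16 of the 17 acid-base transport genes and the 4 channels compared; red genes were higher, blue ones lower, and grey ones did not pass. The dashed line is the 0.19 median of all genes, and Slc4a3 and Slc4a7 stand at opposite ends of the bicarbonate transporters at 1.71 and −0.87.

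The interferon response had the lowest median difference of the 42 gene lists. Cells sense foreign nucleic acid through proteins such as Ddx58, signal through STAT and IRF factors, and make effectors that block viral growth. Of 30 genes of this response, all passed the filter, 28 were lower under 15% CO2 than in low-NaHCO3 medium, none was higher, and 2 did not pass. Their median was −1.5 and 24 were lower by at least 1, against 3.86% of all genes. The count of lower genes was 28 or 29 under every alternative and the median stayed between −1.84 and −1.37 under the other scalings.

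Members from sensing to signalling were lower. Ddx58, the sensor, was −1.55 ± 0.12 lower at 35.8 against 107 TPM. Irf7, a factor that amplifies interferon production, was at 13.2, 12.5 and 8.02 TPM under 15% CO2 and 48.3, 57 and 45.2 TPM in low-NaHCO3 medium (−2.09 ± 0.17), and the groups did not overlap.

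Among effectors, Oas3, an enzyme that makes the activator of RNase L, was at 1.01, 2.16 and 1.68 TPM under 15% CO2 and at 23.4, 33.3 and 21.5 TPM in low-NaHCO3 medium (−3.37 ± 0.20; limma adjusted p = 1.3e-06). Ifit3, which binds viral RNA together with its relatives, was at 33.1, 44.9 and 20.7 against 219, 263 and 219.9 TPM (−2.85 ± 0.22). Reads of Ifit3 and of its near copy Ifit3b (−2.62 ± 0.15) may have been divided between them. Isg15, a ubiquitin-like modifier, differed less: it was at 65, 113 and 42.7 TPM under 15% CO2 and 145, 177 and 134 TPM in low-NaHCO3 medium (−1.14 ± 0.28). Here CO2 2 came close to low 3, without overlap.

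Ifi44 (−2.85 ± 0.21), the GTPase Gbp2 (−2.83 ± 0.16) and Ifit1 (−1.44 ± 0.15) were lower as well. Controls 2 and 3 were below both treatments in each of these effectors, with 4.63 and 6.5 TPM of Ifit3, 3.79 and 5.48 TPM of Ifit1 and 28.9 and 34.4 TPM of Isg15. Under 15% CO2 the same genes were thus above the untreated level and in low-NaHCO3 medium further above it, a comparison of levels that was not tested.

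Promoters of interferon-response genes are shown because so many members stood on the same side. Interferon acts through the response element bound by the complex that holds STAT2 and IRF9, whose core was searched as GAAA, any 2 bases and GAAA on both strands, from 250 bases before to 50 bases after the start of each gene in RefSeq (GRCm38.p6). Of the 21 list members with such a window, 13 held the core (61.9%), against 3.99% of all 27025 genes with a window. The search used no TPM, so this share describes a list of known interferon-response genes. It would be the same whatever the libraries showed and adds nothing to the differences above. A gene with several windows counted if any of them matched. The windows of Oas3 (chr5:120777610-120777909, minus strand), Ifit3 (chr19:34583279-34583578, plus strand) and Isg15 (chr4:156200769-156201068, minus strand) are printed 5′ to 3′ along the gene, with matches to the core or to its reverse complement in capitals.
Oas3: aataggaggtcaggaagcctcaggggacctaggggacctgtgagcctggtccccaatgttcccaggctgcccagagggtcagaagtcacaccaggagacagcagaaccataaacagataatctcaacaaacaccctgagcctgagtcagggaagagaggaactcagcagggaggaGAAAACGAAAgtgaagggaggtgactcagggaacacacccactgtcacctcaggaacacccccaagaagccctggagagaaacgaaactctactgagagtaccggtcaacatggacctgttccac
Ifit3: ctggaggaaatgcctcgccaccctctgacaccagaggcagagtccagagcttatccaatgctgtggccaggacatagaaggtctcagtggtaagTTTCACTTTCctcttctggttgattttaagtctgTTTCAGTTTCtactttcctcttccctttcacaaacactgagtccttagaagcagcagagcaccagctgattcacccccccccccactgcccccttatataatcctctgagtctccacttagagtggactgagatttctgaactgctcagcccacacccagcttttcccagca
Isg15: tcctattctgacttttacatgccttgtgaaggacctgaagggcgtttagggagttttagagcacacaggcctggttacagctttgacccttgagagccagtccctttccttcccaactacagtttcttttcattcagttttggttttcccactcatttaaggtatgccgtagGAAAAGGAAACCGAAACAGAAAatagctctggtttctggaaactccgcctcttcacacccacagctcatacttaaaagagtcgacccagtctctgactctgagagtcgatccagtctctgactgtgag
Oas3 has 1 match, Ifit3 has 2 on the opposite strand, and Isg15 has 3 that overlap each other. A match describes the letters and does not show that a factor was bound.

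MHC class I genes, which interferon also induces, differed less. Of 10 compared, 6 were lower, 1 was higher and 3 did not pass, with a median of −0.49, and 4 were lower without low 2. Tap1, the peptide transporter, was at 8.07, 9.89 and 5.34 TPM against 26.3, 28.7 and 26.7 TPM (−1.72 ± 0.17). The heavy chain H2-D1 was −0.72 ± 0.12 lower at 261 against 425 TPM and Tapbp, its loading chaperone, −0.67 ± 0.079. Erap1, which trims peptides, stood against them (0.51 ± 0.096).

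NFkB genes and chemokines were divided. Of 18 compared, 8 were lower, 6 were higher and 4 did not pass, and the median was −0.027. Without the most abundant genes 7 were lower and 8 higher. The chemokine Cxcl10, which interferon induces too, was at 11.4, 7.9 and 9.82 TPM under 15% CO2 and 37.2, 39.3 and 52.3 TPM in low-NaHCO3 medium (−2.03 ± 0.15). Ccl5 (−1.92 ± 0.20), the feedback inhibitor Tnfaip3 (−1.68 ± 0.11) and the subunit Relb (−1.24 ± 0.13) were lower, whereas the inhibitor Tnip1 was higher (0.97 ± 0.090).

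Chaperones of the endoplasmic reticulum were lower under 15% CO2. They fold secreted proteins and are induced, through ATF6 and the IRE1 to XBP1 branch, when unfolded protein builds up. Of 22 genes compared, 16 were lower, none was higher and 6 did not pass, against 24.8% lower among all genes. The median was −0.55. The lower count ranged from 13 to 20 over the alternatives, and 1 was higher after quantile normalization and 2 without the most abundant genes.

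Hspa5 (BiP, ENSMUSG00000026864), the main chaperone of the compartment, was at 821, 1009.6 and 773 TPM under 15% CO2 and at 3589.8, 3226 and 3666 TPM in low-NaHCO3 medium (−2.02 ± 0.12; limma adjusted p = 1.1e-06). Controls 2 and 3 had 1235 and 1223 TPM, so that 15% CO2 lay below the untreated level and low-NaHCO3 medium above it. Manf, a secreted stress-induced factor, was at 93.9, 95.6 and 92.2 against 242, 229 and 285 TPM (−1.41 ± 0.086), and Creld2, a related stress gene, at 92.4, 115 and 70.2 against 226, 215 and 231 TPM (−1.30 ± 0.15). Xbp1 (−0.90 ± 0.083) and Hyou1 (−0.84 ± 0.072) were lower as well.

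The stress element to which ATF6 and XBP1 bind, spelled CCAAT, any 9 bases and CCACG, was searched in the same windows, a motif chosen after the values were seen. It was found in 8 of the 19 list members with a window (42.1%) and in 37 of all 27025 genes with a window (0.137%). These shares too were taken without TPM and describe the list, not the libraries. The windows of Hspa5 (chr2:34771840-34772139, plus strand) and Creld2 (chr15:88819396-88819695, plus strand) are printed because these genes differed most among those that hold it, with the match in capitals, which in Creld2 is on the opposite strand.
Hspa5: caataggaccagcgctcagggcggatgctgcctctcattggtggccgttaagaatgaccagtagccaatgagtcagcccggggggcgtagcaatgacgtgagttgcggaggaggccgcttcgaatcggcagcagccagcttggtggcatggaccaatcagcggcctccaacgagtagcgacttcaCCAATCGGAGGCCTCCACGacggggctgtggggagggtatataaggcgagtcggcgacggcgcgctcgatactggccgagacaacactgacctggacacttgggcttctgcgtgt
Creld2: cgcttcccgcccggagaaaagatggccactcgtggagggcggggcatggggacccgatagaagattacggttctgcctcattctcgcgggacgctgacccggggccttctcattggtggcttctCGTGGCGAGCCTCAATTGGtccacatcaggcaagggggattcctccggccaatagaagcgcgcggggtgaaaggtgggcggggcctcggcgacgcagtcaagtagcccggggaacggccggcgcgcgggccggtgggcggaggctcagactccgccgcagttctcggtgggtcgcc

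The ATF4 branch, which raises amino acid supply when translation is checked, did not share this direction. Of 23 genes compared, 14 were higher under 15% CO2, 4 were lower and 5 did not pass. The median was 0.27, not far from the 0.19 of all genes. With median-of-ratios scaling 7 were higher, in the fit of all 12 libraries 6, and in the fit of 11 without control 1 12. Slc7a11, the cystine-glutamate exchanger, was at 14, 15.7 and 15 TPM under 15% CO2 and 1.49, 2.35 and 1.82 TPM in low-NaHCO3 medium (2.47 ± 0.13). Slc38a2, an amino acid transporter, was at 128, 139 and 131 against 35.1, 36 and 29.4 TPM (1.96 ± 0.088), and the serine transporter Slc1a4 was 1.09 ± 0.093 higher. For these 3 transporters controls 2 and 3 were near the level of 15% CO2, with 17.2 and 15.7 TPM of Slc7a11 and 139 and 138 TPM of Slc38a2.

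Ddit3 (CHOP), a stress factor downstream of ATF4, stood against them at 38.1, 35.2 and 37.7 TPM against 74.7, 89 and 75.7 TPM (−1.09 ± 0.086), as did Ppp1r15a, which restores translation (−1.02 ± 0.073). Atf4 itself was 0.27 ± 0.068 higher and Asns, the asparagine synthetase, 0.25 ± 0.065, and neither call was kept with median-of-ratios scaling. The composite element TGATGNAA was found in 9 of 24 members of this list with a window (37.5%) against 4.51% of all genes with a window.

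Cytosolic tRNA synthetases, many of them ATF4 targets, showed no common side, with 4 of 20 higher, 5 lower and 11 not passing (3 lower without low 1). With median-of-ratios scaling 3 were higher and 10 lower and without the length trend 3 and 11, but after quantile normalization and without the most abundant genes 10 were higher and 3 lower. Iars was 0.61 ± 0.077 higher and Qars −0.54 ± 0.081 lower. Among 19 cytosolic heat shock genes, 9 were higher, 2 were lower and 8 did not pass. The share of higher ones was near the 44.8% of all genes. Hsph1, a nucleotide exchange factor of HSP70, was at 114, 118 and 118 TPM against 53.9, 53 and 52.1 TPM (1.13 ± 0.063), and Bag3 (0.73 ± 0.088) and Chordc1 (0.67 ± 0.12) were higher, while the small heat shock protein Cryab was lower (−0.62 ± 0.094).

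**Figure D4:**
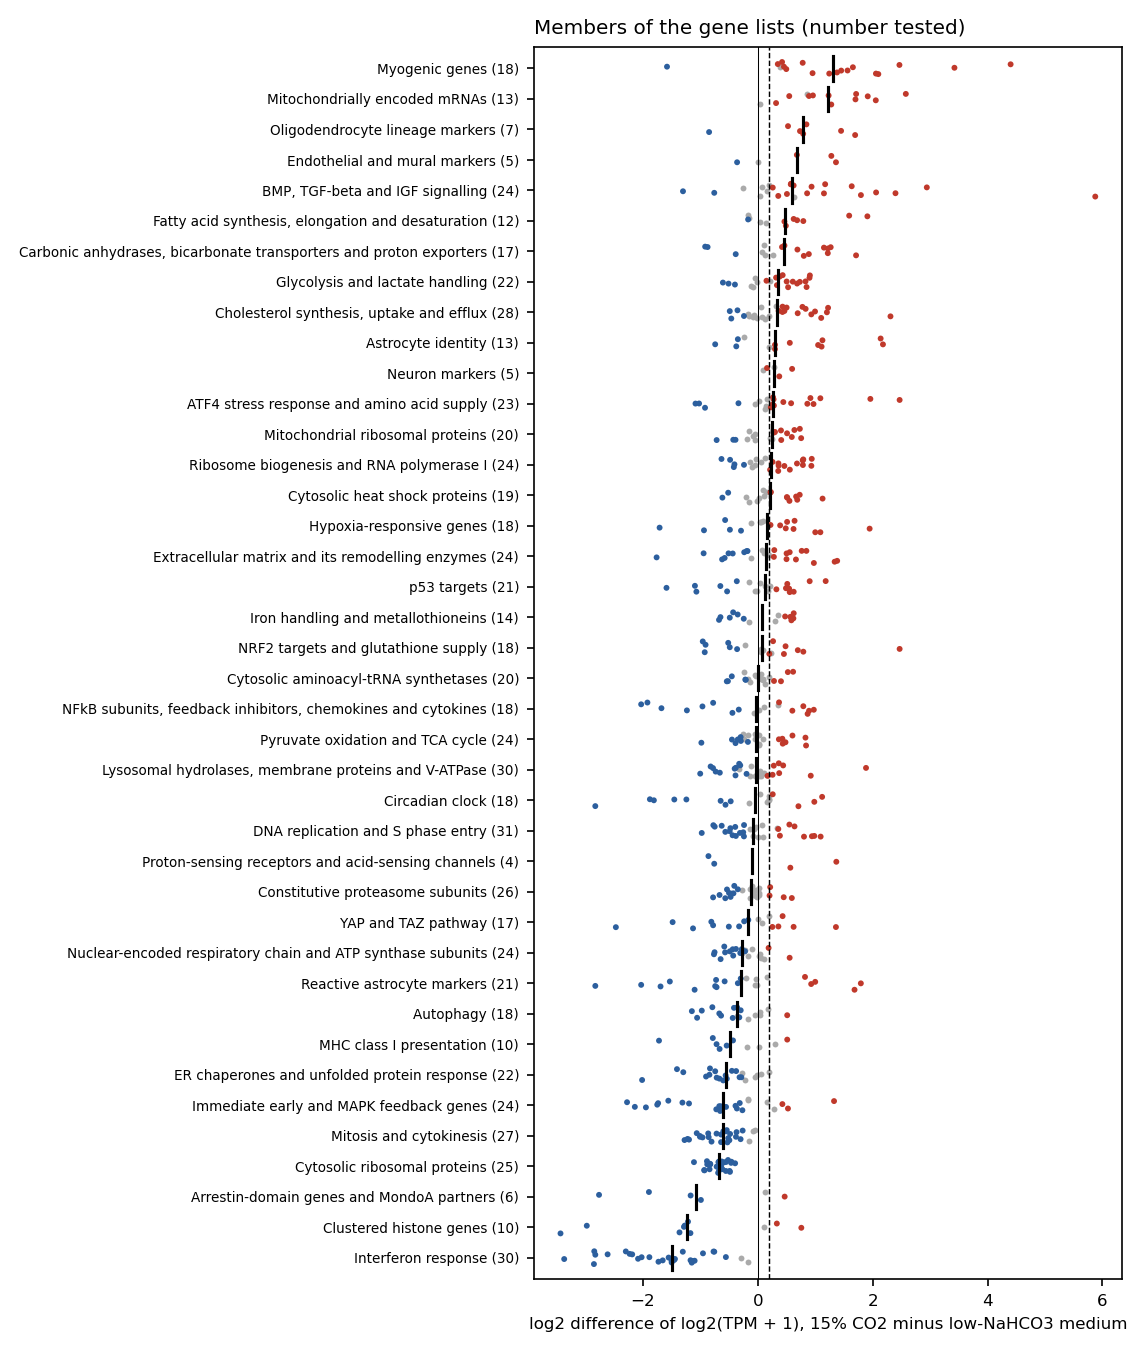
Log2 difference (15% CO2 minus low-NaHCO3 medium) of each member compared, by gene list, with the number of members in parentheses, the list median as a bar, and the median of all genes (0.19) as a dashed line. Red members were higher, blue ones lower, and grey ones did not pass; the interferon, ribosomal protein, mitosis and chaperone lists have no red member.

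Genes of glucose use, like all genes compared, were more often higher than lower under 15% CO2. Of 22 genes of glycolysis and lactate handling compared, 14 were higher, 3 were lower and 5 did not pass, with a median of 0.36. Of all genes 44.8% were higher, with a median of 0.19. The count of higher genes was 10 with median-of-ratios scaling, 5 in the fit of all 12 libraries and 14 in the fit of 11 without control 1. Slc2a1, the widespread glucose transporter, was at 81.5, 69.8 and 72 TPM against 39.5, 46.9 and 38.1 TPM (0.83 ± 0.098), while its neuronal relative Slc2a3 stood the other way at 58.8, 71 and 54.5 against 94.8, 92.3 and 93.6 TPM (−0.61 ± 0.096). Pdk1, a kinase that curbs pyruvate oxidation, was 0.85 ± 0.13 higher, and the phosphofructokinase Pfkl 0.73 ± 0.14. Among lactate genes, Ldhb was at 130.1, 149.7 and 121 against 69.4, 73.6 and 69.5 TPM (0.90 ± 0.086) and Ldha at 724, 795 and 648 against 517, 507 and 500.1 TPM (0.50 ± 0.086). Both calls were lost in the fit of all 12 libraries but kept in the fit of 11 without control 1.

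Gapdh differed by −0.017 ± 0.068 (95% interval −0.17 to 0.14) and did not pass, but passed as higher by 0.20 after quantile normalization. The lactate exporter Slc16a1 was at 161, 206 and 148 against 131, 128 and 132 TPM (0.38 ± 0.11), but its difference was −0.0030 without the length trend, and Slc16a3 was below 1 TPM in all 6 libraries.

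Hypoxia-responsive genes were divided, with 9 of 18 higher, 5 lower and 4 not passing, and a median of 0.15. The oxygen-sensing hydroxylases Egln3, at 28.8, 33.9 and 30.3 against 6.89, 10.1 and 5.51 TPM (1.95 ± 0.17), and Egln1 (1.09 ± 0.11) were higher, as was the angiogenic factor Vegfa at 157, 149 and 144 against 75.4, 81.4 and 67.1 TPM (1.0 ± 0.083). Ndrg1, a stress and differentiation gene, was at 9.53, 7.79 and 9.14 against 29.6, 30.9 and 32.7 TPM (−1.71 ± 0.099), and the peptide hormone Adm was −0.94 ± 0.11 lower.

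Txnip, an arrestin-domain protein that curbs glucose uptake and is induced by the glucose sensor MondoA, was among the 15 lowest genes. It was at 25.9, 30.2 and 17.6 TPM under 15% CO2 and at 163, 152 and 194 TPM in low-NaHCO3 medium (−2.77 ± 0.17; limma adjusted p = 1.7e-06), with 11.8 and 12.9 TPM in controls 2 and 3. Its relative Arrdc4 was at 2.37, 3.1 and 1.5 against 11.7, 11.4 and 10.3 TPM (−1.90 ± 0.17). Arrdc2 (−1.17 ± 0.21) and Arrdc3 (−0.99 ± 0.079) were lower as well, so all 4 arrestin-domain genes of the list were lower, and Mlx, the partner of MondoA, was higher (0.47 ± 0.085). For MondoA a double E-box was searched in the exact spelling CACGTG, any 5 bases and CACGTG. It was in none of the 7 members of this list with a window. As none of all 27025 genes with a window held it either, the search could not tell members from other genes. It does not show that they lack a MondoA element.

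Genes of cholesterol and fatty acid synthesis were compared next. Of 28 cholesterol genes compared, 14 were higher under 15% CO2, 4 were lower and 10 did not pass, a share of higher genes near the 44.8% of all genes. With median-of-ratios scaling 11 were higher and 7 lower. The median was 0.34, but −0.061 after quantile normalization, and without low 1 the lower count was 2. Sqle, which commits squalene to sterols, was at 49.2, 47.4 and 51.6 TPM under 15% CO2 and 19.3, 21.1 and 22.4 TPM in low-NaHCO3 medium (1.20 ± 0.083; limma adjusted p = 2.9e-06), and Acat2 (1.10 ± 0.10), Mvk (1.0 ± 0.13) and the cholesterol exporter Abca1 (1.22 ± 0.12) were higher.

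The pathway was not uniform. Fdft1, the squalene synthase just before Sqle, was at 52.2, 59.3 and 51.6 against 81.3, 74.1 and 74.5 TPM (−0.49 ± 0.080). Hmgcs1 was −0.35 ± 0.14 lower with an adjusted p of 0.049, and the call was lost under 11 of 19 alternatives, among them leaving out CO2 1, CO2 3, low 1 or low 3. For Sqle controls 2 and 3 were above both treatments, at 67 and 68.7 TPM. The sterol element TCACNCCAC was found in 1 of 21 members of this list with a window and in 1.44% of all genes with a window.

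Of 12 fatty acid genes compared, 7 were higher, 1 was lower and 4 did not pass, against 44.8% higher among all genes. Without CO2 1, CO2 3, low 1 or low 2 none was lower. Scd2, the desaturase of brain lipids, was at 914, 982 and 907 TPM under 15% CO2 and 254, 265 and 228 TPM in low-NaHCO3 medium (1.91 ± 0.080; limma adjusted p = 3.7e-07). The elongase Elovl6 was at 41.8, 45.4 and 44 against 13.3, 15 and 13.4 TPM (1.59 ± 0.084) and Acaca, which starts fatty acid synthesis, was 0.79 ± 0.10 higher. Controls 2 and 3 were at 1279.8 and 1262 TPM of Scd2, above 15% CO2.

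Mitochondrially encoded mRNAs took up a larger and more variable share of the RNA under 15% CO2. They summed to 203700, 156010 and 248000 TPM in CO2 1, 2 and 3 and to 104130, 104050 and 108560 TPM in low 1, 2 and 3. Means were 202570 ± 46007 (SD, n = 3) against 105580 ± 2579.3 (SD, n = 3), a difference in mean log2 sum of 0.915, with no overlap (exact two-sided permutation p = 0.1, the smallest that 3 against 3 libraries can give). The 15% CO2 libraries differed among themselves by more than the low-NaHCO3 libraries did, and controls 2 and 3 had 156250 and 163120 TPM.

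Of the 13 genes, 11 were higher, none was lower and 2 did not pass, with a median of 1.23. Those of complex I led: mt-Nd1 was at 47629, 34281 and 59572 TPM under 15% CO2 and 7419.6, 7839.9 and 7864 TPM in low-NaHCO3 medium (2.58 ± 0.22), mt-Nd4l was 2.05 ± 0.15 higher and mt-Nd3 1.91 ± 0.11. The most abundant one, mt-Co1 of complex IV, was at 67637, 51692 and 78056 TPM against 62196, 60277 and 66269 TPM, overlapped and did not pass (0.045 ± 0.26; 95% interval −0.53 to 0.62), a gene singled out after its values were seen. After quantile normalization 8 of the 13 were higher.

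**Figure D5:**
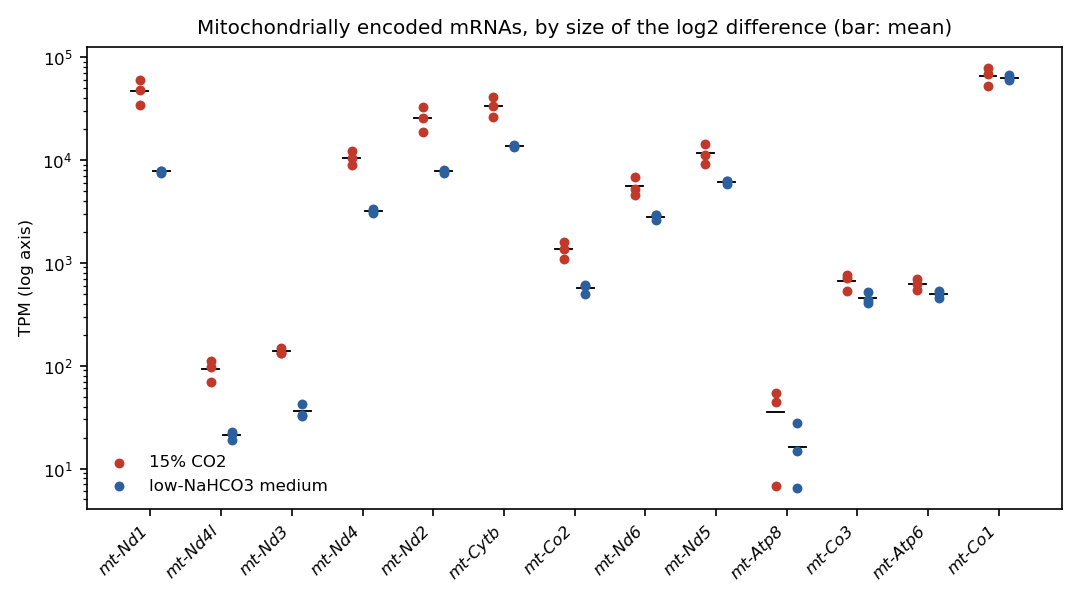
TPM (log axis) of the 13 mitochondrially encoded mRNAs in each of the 3 libraries under 15% CO2 (red) and the 3 in low-NaHCO3 medium (blue), with group means as bars, ordered by the log2 difference. The groups are far apart for mt-Nd1 on the left and coincide for mt-Co1 on the right.

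Nuclear genes of the respiratory chain did not follow. Of 24 compared, 2 were higher, 13 were lower and 9 did not pass, with a median of −0.28. The lower count fell to 8 without CO2 1 or CO2 3 and to 7 without low 3, and rose to 17 without CO2 2. It was 3 in the fit of all 12 libraries, and 6 both in the fit of 11 and after quantile normalization. Ndufv1 of complex I was at 138, 185 and 117 TPM against 260.3, 247 and 229 TPM (−0.76 ± 0.14) and Atp5b of the ATP synthase at 1281, 1429 and 1208 against 1963, 1899 and 1943 TPM (−0.57 ± 0.090, lost after quantile normalization), whereas Ndufb8 was higher (0.55 ± 0.14). Among 24 genes of pyruvate oxidation and the TCA cycle, 7 were higher and 7 lower, an even split only in TPM as deposited among the scalings. Higher and lower genes were 7 and 12 with median-of-ratios scaling, 6 and 13 without the length trend, 10 and 6 after quantile normalization and 10 and 4 without the most abundant genes. In TPM as deposited Ogdh (0.83 ± 0.065) and Suclg1 (0.84 ± 0.089) were higher, and Mpc1, the pyruvate carrier of mitochondria, was lower (−0.98 ± 0.15). Of 20 mitochondrial ribosomal proteins 9 were higher and 3 lower (7 and 7 with median-of-ratios scaling, 5 and 6 without the length trend), among them Mrps12 (0.75 ± 0.095) and Mrps18b (−0.72 ± 0.12). Here too the share of higher ones was near the 44.8% of all genes.

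Cytosolic ribosomal protein mRNAs were lower as a group. All 25 of the list were lower under 15% CO2, with a median of −0.67, in TPM as deposited and after leaving out any 1 library. With other scalings 25 were lower by median-of-ratios, 17 after quantile normalization and 24 without the most abundant genes. In the fit of all 12 libraries 11 were lower, and in the fit of 11 without control 1 22 were. Rps16 was at 554, 773 and 410.2 TPM against 1159.9, 1234 and 1243 TPM (−1.11 ± 0.19), and Rplp1 at 3151, 3840.4 and 2380.2 against 5551, 5829 and 5619 TPM (−0.89 ± 0.16). The 83 ribosomal protein genes summed to 78394, 87931 and 65417 TPM in CO2 1, 2 and 3 and to 114650, 115150 and 125670 TPM in low 1, 2 and 3, a difference in mean log2 sum of −0.63 (exact two-sided permutation p = 0.1). CO2 2 was the library with the highest ribosomal protein sum and the lowest mitochondrial sum of its group, and CO2 3 the reverse. TPM are shares of one total, and the part of the mitochondrial sum in the ribosomal difference was not tested.

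Of 24 genes that build ribosomes, 13 were higher, 5 were lower and 6 did not pass, with a median of 0.235 that was close to the 0.19 of all genes, of which 44.8% were higher. With median-of-ratios scaling 10 were higher and 8 lower. Bop1, a processing factor, was at 79.6, 79.1 and 75.7 TPM against 39.3, 40 and 41.6 TPM (0.94 ± 0.067), and the RNA polymerase I factors Ubtf (0.93 ± 0.070) and Polr1a (0.79 ± 0.079) were higher. The nucleolar GTPase Gnl3 was lower (−0.63 ± 0.098).

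Mitotic genes were lower under 15% CO2. Of 27 compared, 24 were lower, none was higher and 3 did not pass, against 24.8% lower among all genes. The median was −0.60. The lower count was 21 to 25 under the alternatives other than the fit of all 12 libraries, which gave 16. The fit of 11 without control 1 gave 24. Anln, which builds the cleavage furrow, was at 177, 182 and 182 TPM under 15% CO2 and 441, 481 and 396 TPM in low-NaHCO3 medium (−1.28 ± 0.081; limma adjusted p = 1.8e-06). Cdk1, the kinase that drives entry into mitosis, was at 156, 172 and 134 against 314, 309 and 305 TPM (−1.01 ± 0.091), and Cdc25c (−1.22 ± 0.067), Kif23 (−1.20 ± 0.073) and Prc1 (−1.06 ± 0.076) were lower. For Anln, controls 2 and 3 were at 190 and 191 TPM and for Cdk1 at 196 and 191 TPM, nearer to 15% CO2.

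DNA replication genes were divided by role. Of 31 compared, 8 were higher, 14 were lower and 9 did not pass, with 7 higher and 20 lower without the length trend but 11 and 10 without the most abundant genes. Among 7 regulators of S phase entry 5 were higher, such as the cyclins Ccne2, at 62.5, 59.1 and 69.7 against 33.7, 28.7 and 35.9 TPM (0.94 ± 0.10), and Ccne1 (0.80 ± 0.090). Cdt1, which loads the helicase onto origins, was the lower one, at 92.4, 88.5 and 79 against 169, 173 and 172 TPM (−0.98 ± 0.074). Among 10 helicase genes 8 were lower, such as Mcm5 at 127, 142 and 121 against 197, 181 and 200 TPM (−0.57 ± 0.080), and Gins1 was higher (0.98 ± 0.14). Tyms, which makes thymidylate, was 1.09 ± 0.095 higher.

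Of 10 clustered histone genes that passed the filter, 7 were lower, 2 were higher and 1 did not pass, with a median of −1.24. Among all genes 24.8% were lower. The lower count was 3 with the filter at 5 TPM and 5 without low 1, low 2 or low 3. It was 5 in the fit of all 12 libraries and 7 in the fit of 11. Some lower members were at a few TPM, such as Hist1h2bk (0.389 against 2.18 TPM) and Hist1h1e (0.726 against 3.07 TPM). Hist1h4i was at 24.3, 37.8 and 15.2 TPM under 15% CO2 and 267, 215 and 348 TPM in low-NaHCO3 medium (−3.44 ± 0.28), and Hist1h2bc at 10.4, 12.5 and 8.2 against 90.3, 71 and 105 TPM (−2.98 ± 0.16). The linker histone Hist1h1c (−1.36 ± 0.14) was lower as well, and so was Hist1h2bg (−3.06 ± 0.25), which is among the 15 lowest genes but not in this list. Hist2h2be stood against them at 26.5, 24.7 and 23.7 against 13, 16.3 and 14 TPM (0.76 ± 0.10). Near-identical histone genes may share reads, and how those were assigned is not given in the sources used here.

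Targets of p53 had no common side, with 8 of 21 higher, 6 lower and 7 not passing, and 7 higher and 10 lower after quantile normalization. Cdkn1a, the cell cycle inhibitor, was at 74.6, 71.5 and 81.4 TPM against 69.5, 59.9 and 72.6 TPM and did not pass (0.17 ± 0.089). Gadd45a (−1.07 ± 0.11) and Plk2 (−1.10 ± 0.071) were lower and Tigar was higher (1.18 ± 0.15).

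Immediate early genes, the first to answer growth factors and stress, were mostly lower. Of 24 compared, 17 were lower, 3 were higher and 4 did not pass, against 24.8% lower among all genes. The median was −0.60. Egr1, a zinc finger factor, was at 51.1, 48.1 and 53.9 TPM under 15% CO2 and 199, 197 and 203 TPM in low-NaHCO3 medium (−1.95 ± 0.068; limma adjusted p = 2.2e-07). The AP-1 members Fos, at 4.91, 3.19 and 3.58 against 21.3, 15.9 and 24.7 TPM (−2.14 ± 0.18), Fosb (−2.28 ± 0.15) and Fosl1, at 45.7, 36.2 and 40.5 against 137, 134 and 143 TPM (−1.74 ± 0.089), were lower, and Jund was higher (1.33 ± 0.21). Myc was at 113, 105 and 114 against 125, 128 and 119 TPM and did not pass (−0.16 ± 0.067; adjusted p = 0.052).

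Of 17 YAP and TAZ pathway genes 9 were lower, 5 were higher and 3 did not pass, against 24.8% lower among all genes. Without the most abundant genes 6 were on each side. Ccn1, a matrix-bound signalling protein, was at 284, 285 and 304 TPM under 15% CO2 and 1599, 1689.7 and 1567 TPM in low-NaHCO3 medium (−2.47 ± 0.072), and its relative Ccn2 at 36.1, 44.7 and 33.2 against 85.5, 91.2 and 75 TPM (−1.13 ± 0.12). The pathway's inhibitors stood apart from each other: Lats2, itself a target, was −1.48 ± 0.091 lower, and Nf2 was at 62, 59.1 and 56.1 against 23.3, 24.1 and 19.9 TPM (1.36 ± 0.090). Controls 2 and 3 were at 219.5 and 239 TPM of Ccn1.

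Matrix genes were divided, with 11 of 24 higher, 9 lower and 4 not passing, and 6 higher and 10 lower without the length trend. The share of higher ones was near the 44.8% of all genes. The collagen Col3a1 was at 39.9, 46.9 and 41.3 against 16.8, 14.8 and 15.7 TPM (1.38 ± 0.091) and the protease Adamts1 was 1.34 ± 0.12 higher, whereas Thbs1, a secreted matrix glycoprotein, was −0.94 ± 0.079 lower. Fibronectin, Fn1, did not pass (0.11 ± 0.084).

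Signalling by BMP, TGF-beta and insulin-like growth factors held many higher genes. Of 24 compared, 16 were higher, 2 were lower and 6 did not pass, with a median of 0.60. Of all genes 44.8% were higher, with a median of 0.19. Apart from the binding proteins above, the BMP antagonist Grem1 was at 94.1, 106 and 89.9 TPM under 15% CO2 and 18.2, 18.9 and 15.6 TPM in low-NaHCO3 medium (2.40 ± 0.096). Id2, a direct BMP target, was at 155, 147 and 161 against 35.6, 35 and 38.3 TPM (2.06 ± 0.071), and the receptor Tgfbr2 was 1.80 ± 0.088 higher at 30.3 against 8.02 TPM. The ligand Tgfb1 stood against them at 34.8, 30.9 and 36.5 against 81.6, 86 and 88.4 TPM (−1.30 ± 0.081).

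Muscle genes were present in these cells and higher under 15% CO2. Of 18 myogenic genes compared, 16 were higher, 1 was lower and 1 did not pass, against 44.8% higher among all genes. The median was 1.31, and 4 others were below the filter. All 5 transcription factors were higher, among them Myf5 at 140.4, 146 and 141 against 47.3, 50.5 and 45 TPM (1.56 ± 0.070) and Myod1 at 28.8, 23.3 and 27.9 against 8.42, 9.94 and 8.89 TPM (1.45 ± 0.11), both named after their values were seen. The slow troponin Tnnt1 was at 163, 166 and 149 against 28.6, 26.2 and 29.2 TPM (2.47 ± 0.075), and the fusion protein Mymk was 2.06 ± 0.11 higher. Acta1, skeletal actin, was the lower one, at 13.9, 13.9 and 9.09 against 34.2, 44.8 and 36.3 TPM (−1.58 ± 0.16). The E-box CAGCTG, chosen after the values were seen, was in 7 of 16 members of this list with a window (43.8%) and in 18.3% of all genes with a window.

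The label of the cells was checked against astrocyte markers. Of 24 astrocyte genes, 13 passed the filter and 11 were below 1 TPM in all 6 libraries. Slc1a3, Gjb6 and Ntrk2 were listed at 0 and Gfap was below 1 TPM throughout, so several defining markers were absent while Sox2, Sox9, Vim and muscle regulators were present. Summed astrocyte markers were 2741.8 to 3155.7 TPM under 15% CO2 and 3329.3 to 3764.3 TPM in low-NaHCO3 medium. A large part of these sums was Vim alone, with means of 1503 and 2507 TPM, so they do not describe the other markers.

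Of the 13, 8 were higher, 3 were lower and 2 did not pass, and 5 were higher without CO2 1. Sox2, a factor of neural progenitors and glia, was at 275, 261 and 266 TPM under 15% CO2 and 62.1, 59.2 and 58.5 TPM in low-NaHCO3 medium (2.14 ± 0.064; limma adjusted p = 1.3e-07), with 304 and 328 TPM in controls 2 and 3. Fabp7, a fatty acid binding protein of radial glia, was at 11.4, 11.6 and 10.1 against 1.7, 1.2 and 2.13 TPM (2.18 ± 0.15, lost in the fit of all 12 libraries), and the glial factors Nfib (1.13 ± 0.099) and Nfia (1.05 ± 0.13) were higher. The filament Vim was lower at 1499, 1683 and 1327 against 2494, 2678 and 2351 TPM (−0.74 ± 0.11), and Sox9 did not pass (0.19 ± 0.078).

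Of 21 markers of reactive astrocytes compared, 11 were lower, 5 were higher and 5 did not pass. Serpina3n, a widely used marker, was at 42.5, 34.1 and 41.5 against 9.65, 11 and 11.1 TPM (1.79 ± 0.11), and the ferroxidase Cp was 1.68 ± 0.15 higher. The cytokine Clcf1 was at 86.9, 83.7 and 82.5 against 293, 279 and 255 TPM (−1.69 ± 0.072), and Gbp2 and Cxcl10, given above, are in this list as well as in those of interferon and chemokines.

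Markers of other brain cells ranged from nearly absent to clearly present. Of 12 microglial markers 8 were listed at 0 in all 6 libraries and 2 passed the filter, 1 in each direction: Tmem119 was 2.12 ± 0.23 higher at 8.25 against 1.19 TPM and Cx3cr1 −1.56 ± 0.17 lower at 0.353 against 3.01 TPM. Cx3cr1 passed the filter only through its low-NaHCO3 libraries. The sum of all 12 was 7.82 to 10.6 TPM under 15% CO2 and 3.88 to 4.96 TPM in low-NaHCO3 medium. Of 12 oligodendrocyte lineage markers, which summed to 195 to 223 TPM and 114 to 120 TPM, 7 passed the filter, 6 of them higher: Sox10, the lineage factor, was at 141, 136 and 126 against 77.8, 80.2 and 74.1 TPM (0.79 ± 0.071) and Olig1 was 1.69 ± 0.14 higher at 5.35 against 0.968 TPM. Of 12 endothelial and mural markers 5 passed the filter, 3 of them higher and 1 lower. The lower one, the smooth muscle actin Acta2, made up most of the list's RNA at 927, 829 and 847 against 1133, 1152 and 1057 TPM (−0.36 ± 0.081), a call lost after quantile normalization and in the fit of all 12 libraries. The list summed to 881 to 981 TPM under 15% CO2 and 1085.5 to 1183 TPM in low-NaHCO3 medium. Among the higher ones was Pdgfrb, a receptor of pericytes, at 29.4, 26.8 and 27.4 against 10.5, 12.5 and 9.74 TPM (1.28 ± 0.11). Of 13 neuronal markers 5 passed the filter, 3 of them higher by at most 0.60. The count of higher ones was 1 with median-of-ratios scaling or quantile normalization, and none was higher without the length trend. The other 8 were below 1 TPM in all 6 libraries, among them Snap25, listed at 0. The sums were 498 to 550 TPM under 15% CO2 and 446 to 483 TPM in low-NaHCO3 medium. Most of each sum was Nefm alone, with means of 391.6 and 350.4 TPM, so the sums do not describe the other markers. Sox10 likewise made up most of the oligodendrocyte sums. The part of other cell types in the differences above was not tested. Without CO2 1, low 2 or low 3, 1 neuronal marker was higher.

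Clock genes differed by role. Of 18 compared, 8 were lower, 4 were higher and 6 did not pass. Among 10 repressors of the circadian clock 7 were lower under 15% CO2 and none was higher. Per1 was at 15.8, 14.3 and 16.3 TPM under 15% CO2 and 125, 92.9 and 134 TPM in low-NaHCO3 medium (−2.83 ± 0.13; limma adjusted p = 5.2e-07). Nr1d1, at 44.8, 37.3 and 50.8 against 162, 138 and 172 TPM (−1.81 ± 0.12), Ciart (−1.88 ± 0.14) and Cry2, at 11.9, 10.6 and 10.6 against 32.7, 31.9 and 31.3 TPM (−1.45 ± 0.086), were lower. Of the 5 outputs 2 were higher, only Nfil3 was lower (−1.24 ± 0.14) and 2 did not pass. Of the 3 activators 2 were higher, with Npas2 1.12 ± 0.15 higher at 3.8 against 1.22 TPM, a call lost in the fit of all 12 libraries. The time of day at which each group was collected is not in the labels, and its part in these differences was not tested.

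Autophagy genes were mostly lower, with 11 of 18 lower, 1 higher and 6 not passing, against 24.8% lower among all genes. The median was −0.37. Gabarapl1, which coats autophagosomes, was at 127, 126 and 114 against 245, 238 and 285 TPM (−1.06 ± 0.085). Atg12 (−1.15 ± 0.077) and the cargo receptor Nbr1 (−0.98 ± 0.075) were lower, and Atg5, the partner of Atg12, was higher (0.51 ± 0.090).

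Lysosomal genes were divided, with 8 of 30 higher and 11 lower, and 5 were higher without CO2 1, CO2 2 or low 2. The balance turned with the scaling: 4 were higher and 15 lower with median-of-ratios scaling and 3 and 18 without the length trend, but 10 and 7 after quantile normalization and 13 and 8 without the most abundant genes. The sialidase Neu1 was at 63.3, 66.5 and 55.7 against 18.3, 15.9 and 14 TPM (1.88 ± 0.11) and the hydrolase Hexa at 355, 396 and 346 against 705, 774 and 722 TPM (−1.0 ± 0.079). Of 7 proton pump (V-ATPase) subunits 4 were lower and 2 higher, among them Atp6v1h (−0.78 ± 0.14). Of 26 constitutive proteasome subunits 10 were lower and 4 higher, such as Psmd11 (−0.78 ± 0.077) and Psmc4 (0.59 ± 0.080), and 2 were higher without low 2.

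Redox and iron genes were also divided. Of 18 NRF2 targets and glutathione genes 7 were higher and 6 lower (5 and 7 with median-of-ratios scaling, 10 and 6 without the most abundant genes). Beside Slc7a11, G6pdx, the entry of the pentose phosphate pathway, was at 134, 129.8 and 130.2 against 77.5, 79 and 70 TPM (0.79 ± 0.070), while thioredoxin reductase Txnrd1 was at 236, 268 and 233 against 492, 498 and 444 TPM (−0.96 ± 0.082) and Txn1 was −0.92 ± 0.15 lower. Hmox1, the haem oxygenase, was −0.49 ± 0.077 lower, a call lost in the fit of all 12 libraries. Of 14 iron and metallothionein genes 5 were higher and 6 lower (6 and 4 without the most abundant genes). The ferritin chains Fth1, at 2152, 2371 and 1892 against 3249, 3359.5 and 3607 TPM (−0.68 ± 0.11), and Ftl1 (−0.65 ± 0.095) were lower and the metallothionein Mt1 was higher (0.62 ± 0.097).

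Levels in the untreated controls 2 and 3 were nearer to 15% CO2 than to low-NaHCO3 medium for most genes that differed. This held for 4655 of the 5362 higher genes (86.8%) and 2548 of the 2960 lower ones (86.1%). Among genes that differed by at least 1 it held for 1477 of 1565 higher (94.4%) and 447 of 462 lower (96.8%), and among genes that did not pass for 2157 of 3634 (59.4%). These shares describe mean levels and carry no test. Nearer does not mean equal: for the interferon effectors named above and for Slc4a7 the controls lay below both treatments.

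Some abundant genes differed little between the treatments in TPM as deposited. For 1078 genes the 95% interval of the difference lay within ±0.3, and the 6 most abundant of them were Pkm (−0.076 ± 0.080), Hspd1 (0.087 ± 0.091), Hspa9 (−0.085 ± 0.076), Pabpc1 (−0.018 ± 0.12), Laptm4a (0.036 ± 0.080) and Aldoa (−0.048 ± 0.10). Pkm, which catalyses the last step of glycolysis, was at 1544, 1582 and 1478 TPM under 15% CO2 and 1614, 1569 and 1670.4 TPM in low-NaHCO3 medium, and the mitochondrial chaperones Hspd1, at 1421, 1668 and 1437 against 1448, 1377 and 1425 TPM, and Hspa9 also overlapped. After quantile normalization, however, Pkm, Hspa9 and Aldoa passed as higher under 15% CO2, by 0.33, 0.33 and 0.36.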

How the data were processed

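RNA-seq of C8-D1A cells was used from 1 deposited table with a column per library. Its values are TPM, made by the authors, and the submitters' processing notes name fastp 0.22.0, HISAT2 2.1.0 and the build GRCm39. What counted the reads, on which annotation and whether by strand, is not given in the sources used here. The deposited columns sum to 1000000 each, so a share that grows lowers the others. No counts are listed, so the depth is unknown and no counting intervals are given. Groups follow the titles and treatment labels. Free-text descriptions of replicates 2 and 3 under 15% CO2 write CO3 and CO4 for the gas, and reagent numbers in the low-NaHCO3 descriptions rise by 1 per replicate. Both were read as copying errors, and the labels do not settle this. Of the gene IDs, 21851 were matched to a symbol and 108 were not.

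Genes that reached 1 TPM in 3 or more of the 6 libraries were compared on log2(TPM + 1), with a pseudocount of 1, by limma 3.58.1 in R 4.3.3 (2 group means, eBayes with trend, two-sided, Benjamini-Hochberg adjustment). Summed TPM were compared by exact permutation. The script was tested on simulated data. Alternatives were another pseudocount (0.1), filters, scalings, eBayes settings, fits with more libraries, a replicate block, and leaving out each library. The 42 gene lists, with 869 entries, and the comparison itself were chosen with earlier results of these data known. Named are the 15 highest and 15 lowest genes past the threshold without overlap and with a mean of at least 5 TPM in 1 group (predicted names left out), up to 5 members per list with the largest differences, the largest member against a list's majority, a fixed panel, and the 6 most abundant genes whose 95% interval lies within ±0.3. A few genes picked by this rule were left out of the text. Any other gene named is a further member of a described list or is marked in the text. Promoter windows are RefSeq's, build GRCm38.p6, from 250 bases before to 50 after each start, and served for letters only, since the files use another build. Each motif was searched by itself on both strands, so matches may overlap those of another. Motif shares used no TPM, and their background was every gene with a window, whether compared here or not.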

Additional observations from a re-analysis of the deposited data

How the results depend on the processing

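The number of genes that passed stayed within 1.5 times of 8322 under all 19 alternatives, from 6301 in the fit of all 12 libraries to 8978 without mitochondrial and the 10 most abundant genes, and leaving out 1 library gave 7121 to 8055. With control 1 omitted from the fit of all 12 libraries, 8333 genes passed. Genes higher by at least 1 were 699 after quantile normalization and 937 without the length trend, and genes lower by at least 1 were 757 and 781. The median of all genes was 0.041 with median-of-ratios scaling, 0.0060 after quantile normalization, 0.34 without the most abundant genes and −0.015 without the length trend. Of 249 named genes that passed, 205 passed in the same direction under every alternative, 40 lost the call under at least 1 and 4 changed sign under at least 1. Among named genes, those that had passed and those that had not, sign changes were Syn1 (−0.13), Acta2 (0.019), Car9 (−0.29), Gapdh (0.20), Pkm (0.33), Hspa9 (0.33) and Aldoa (0.36) after quantile normalization, Nefm (−0.00035) with median-of-ratios scaling, and Nefm (−0.17), Slc16a1 (−0.0030) and Laptm4a (−0.21) without the length trend. The cause was not tested. Of the counts of list members in a direction, 1453 of 1590 stayed within 1.5 times.

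Replicates share only a number in the labels. Deviations from the group means of same-numbered libraries correlated at −0.042, −0.0092 and 0.0063 across genes, so no pairing was seen, and 8469 genes passed with the replicate number as a block. Without counts, depth could not be weighed.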
